A study of Mus musculus with 4 samples.

Results

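Heat shock genes encode the chaperones that bind unfolded proteins and help them refold. Hsf1 is the transcription factor that induces them when unfolded protein accumulates, by binding heat shock elements, which are inverted repeats of the bases GAA in their promoters. Chaperones of the HSP70, HSP90 and HSP60 families hold and fold client proteins, and co-chaperones of the J-domain, HSP110 and HSP10 families set the pace of that cycle. Some of these genes are transcribed in unstressed cells all the time, whereas others are nearly silent until cells are stressed by heat or by handling.

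The group held 10 genes, chosen by name as rows of the deposited fragment count table, out of 24984 genes in that table. The inducible HSP70 genes were Hspa1a and Hspa1b, and Hspa8 was the constitutive HSP70 gene. The other chaperones were Hsp90aa1 and Hsp90ab1 (cytosolic HSP90), Hspd1 (mitochondrial HSP60), Hspe1 (its partner HSP10) and Hsph1 (HSP110, which exchanges the nucleotide of HSP70). Dnajb1, the HSP40 J-domain partner of HSP70, and the regulator Hsf1 completed the group. Levels are given as CPM, fragments of a gene scaled so that the genes of a library sum to 1000000. A mean of at least 1 CPM was reached by 9 of the 10 genes, and Hspa1a lay under it with a mean of 0.971 CPM.

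The libraries were TTchem-seq libraries, in which RNA made during a pulse of 4-thiouridine (4sU) is labelled, fragmented, enriched and sequenced, so that the signal over a gene reflects new transcription. The cells were double positive (DP) thymocytes, immature T cells with both CD4 and CD8 on their surface, purified from 6- to 8-week-old mice of C57BL/6 background and cultured in fresh medium for 0.5 h before labelling. There were 2 libraries from wild-type (WT) mice, with genotype Tox4;F/F, and 2 from conditional knockout (cKO) mice, with genotype Tox4;F/F;Lck+, in which Cre under the proximal Lck promoter deletes loxP-flanked exons of Tox4, a DNA-binding partner of PP1 phosphatase complexes. Both groups thus carried the floxed alleles, and the WT group had no Cre. The libraries of a genotype are separate samples by their labels, but nothing states that each came from a separate mouse, so the tests measure the spread between these samples. DP cells were isolated with CD4 beads for other assays of the study, and the purification for this assay was not stated separately. In such bulk libraries fewer cells of a type and less RNA per cell cannot be told apart.

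The libraries held between 38429786.5 and 48690591.2 fragments assigned to genes. All 15 DP markers listed reached a mean of 1 CPM, with a summed level between 13599 and 15208 CPM per library. The sum of 9 markers of mature single positive cells lay between 503 and 578 CPM, and all 9 were above 1 CPM. The sums of 7 B cell markers and 10 myeloid markers did not exceed 25.9 and 13.8 CPM, and the globin genes Hba-a1 and Hbb-bs stayed at or below 0.2515 and 0.08803 CPM. The fibroblast and endothelial markers summed to between 360.2 and 416 CPM, but only Pecam1 of the 7 listed reached a mean of 1 CPM. Pecam1 alone was at 359.6 to 416 CPM. Of 9 erythroid markers (sum 24.7 to 27.8 CPM) only Tfrc reached that mean. Of 9 thymic epithelial markers (sum 6.34 to 17.4 CPM) only Cldn4 did, and Psmb11 and Krt14 were at 0. Xist reached 172 CPM in WT replicate 1, against no more than 2.36 CPM elsewhere, and Rn45s took between 2.44% and 4.305% of fragments. WT replicate 1 thus stood apart in a sex-linked transcript, although the study states that its mice were sex-matched littermates. The part of this difference in the comparisons below was not tested. Tox4, counted over its whole locus and not over the deleted exons alone, was at 74.04 and 70.3 CPM in WT and at 59.3 and 57.2 CPM in cKO (log2 fold change -0.31, SE 0.0998, DESeq2 adjusted p = 0.0453). The Tox4 call was lost with edgeR (adjusted p = 0.153), limma voom (0.143), library totals as DESeq2 size factors (0.0511), independent filtering off (0.0821) and the replicate block (0.361), and without any 1 library (DESeq2 adjusted p from 0.196 to 0.792), while its log2 fold change stayed between -0.34 and -0.28.

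Promoter sequences of RefSeq (GRCm38.p6), each from 250 bases before to 50 bases after a gene start, were given for 6 members. They were searched on both strands for the 2-unit parts of a heat shock element, GAANNTTC or TTCNNGAA, for a 3-unit element, in which both of these overlap by sharing 1 unit, and for CCAAT. The 3-unit form was found in 0.603% of 32851 windows of the mouse genome, GAANNTTC in 7.86%, TTCNNGAA in 8.52% and CCAAT or its complement in 37.4%. The upstream stretches below are shown for the near-identical pair Hspa1a and Hspa1b and for Hspe1 and Hsph1, whose windows hold the 3-unit form. Capitals mark matches to the 3-unit or 2-unit elements, and each stretch is written 5′ to 3′ on the strand of its gene.

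Hspa1a (chr17:34972157-34972406, minus strand): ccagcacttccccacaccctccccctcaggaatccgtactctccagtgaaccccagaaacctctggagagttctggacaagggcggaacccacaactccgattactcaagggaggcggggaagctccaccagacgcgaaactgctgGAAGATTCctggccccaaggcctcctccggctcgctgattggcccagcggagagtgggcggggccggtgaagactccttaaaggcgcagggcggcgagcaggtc
Hspa1b (chr17:34959239-34959488, minus strand): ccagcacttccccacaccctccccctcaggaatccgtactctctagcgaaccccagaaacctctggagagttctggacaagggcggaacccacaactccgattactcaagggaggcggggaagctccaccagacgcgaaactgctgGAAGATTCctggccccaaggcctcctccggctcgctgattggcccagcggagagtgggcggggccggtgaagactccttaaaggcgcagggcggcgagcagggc
Hspe1 (chr1:55088053-55088082, plus strand): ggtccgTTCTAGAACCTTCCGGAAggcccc
Hsph1 (chr5:149636337-149636456, minus strand): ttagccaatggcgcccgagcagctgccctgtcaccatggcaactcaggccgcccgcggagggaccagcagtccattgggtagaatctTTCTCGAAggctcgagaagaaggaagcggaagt

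The 250 bases upstream of Hspa1a and Hspa1b differed at 3 positions, so 98.8% were identical, and both held 1 element of 2 units from -104 to -97 and 1 CCAAT box. In the stretch between Hspe1 and the inner start of Hspd1, overlapping 3-unit elements ran from -89 to -72 relative to Hspe1 and from -144 to -127 relative to Hspd1, because both genes read outward from the same DNA. Hsph1 had a 2-unit element from -33 to -26 upstream of its outer start and a 3-unit element from 37 to 49 downstream of it. Dnajb1 had CCAAT boxes from -151 to -147 and from 12 to 16. No match to either heat shock form lay in its windows, which says only that these letters are not in the 300 bases searched. The members without a sequence here were Hsp90aa1, Hsp90ab1, Hspa8 and Hsf1.

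**Figure D1:**
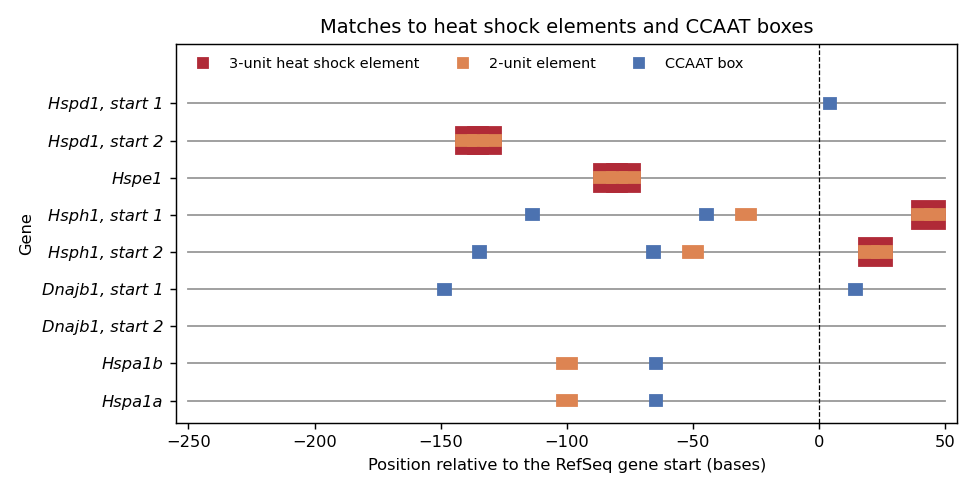
Matches to the 3-unit heat shock element, its 2-unit parts and CCAAT in 9 promoter windows of 6 members, with the position relative to the RefSeq gene start on the horizontal axis in bases. The 3-unit matches lie in the windows of Hspe1, Hsph1 and the inner start of Hspd1 (start 2), and Hspa1a and Hspa1b carry the same 2-unit match.

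Transcriptional output per kb of gene spanned a wide range among the members. Levels were compared between genes as CPM per kb of the counted locus, introns included. Hspa8 was highest with a mean of 56.4 CPM per kb (range 53.8 to 63.7 over the 4 libraries), above 99.3% of the 11625 genes averaging 1 CPM or more. Dnajb1 followed with 23.5 CPM per kb (21.9 to 26.4) and Hsp90ab1 with 18.3 (17.3 to 20.3), above 98.02% and 97.2% of genes. Hsp90aa1, the HSP90 gene that heat induces more strongly, had 7.54 CPM per kb (6.86 to 8.09), and Hsf1 had 4.15 (4.02 to 4.36). The ranges of these 5 genes did not overlap each other. Hspe1 at 1.70 CPM per kb and Hspd1 at 1.41 had overlapping ranges and lay near the middle of all genes, above 54.98% and 49.02% of them.

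The lowest levels were those of Hsph1, Hspa1b and Hspa1a, with 0.662, 0.559 and 0.347 CPM per kb. The ranges of Hsph1 and Hspa1b overlapped, as did those of Hspa1b and Hspa1a. Hspa1a and Hspa1b, which heat induces most strongly, lay above 20.1% and 27.3% of genes. They are single-exon genes of 2798 and 2810 bp on chromosome 17 (34969359 to 34972156 and 34956429 to 34959238, minus strand).

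Sequence shared with other loci bears on these levels, because a fragment that aligns to several places may be left out or divided between them. Of all windows of 50 bases in the locus of Hspa1a, 64.1% occurred elsewhere on the chromosomes of GRCm38, and 62.4% occurred in Hspa1b. For Hspa1b, 62.2% of windows occurred elsewhere, all of these in Hspa1a as well. The share was 39.1% for Hspa8, 36.1% for Hsp90aa1, 11.5% for Hspd1 and 8.23% for Hspe1, and between 0.384% and 3.39% for Dnajb1, Hsph1, Hsf1 and Hsp90ab1. With windows of 100 bases it was still 51.7% for Hspa1a, 49.8% for Hspa1b, 25.4% for Hspa8 and 23.9% for Hsp90aa1. The read length and the treatment of multiply aligned reads were not given in the sources used here, and the effect on the levels of these 4 genes was not tested.

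**Figure D2:**
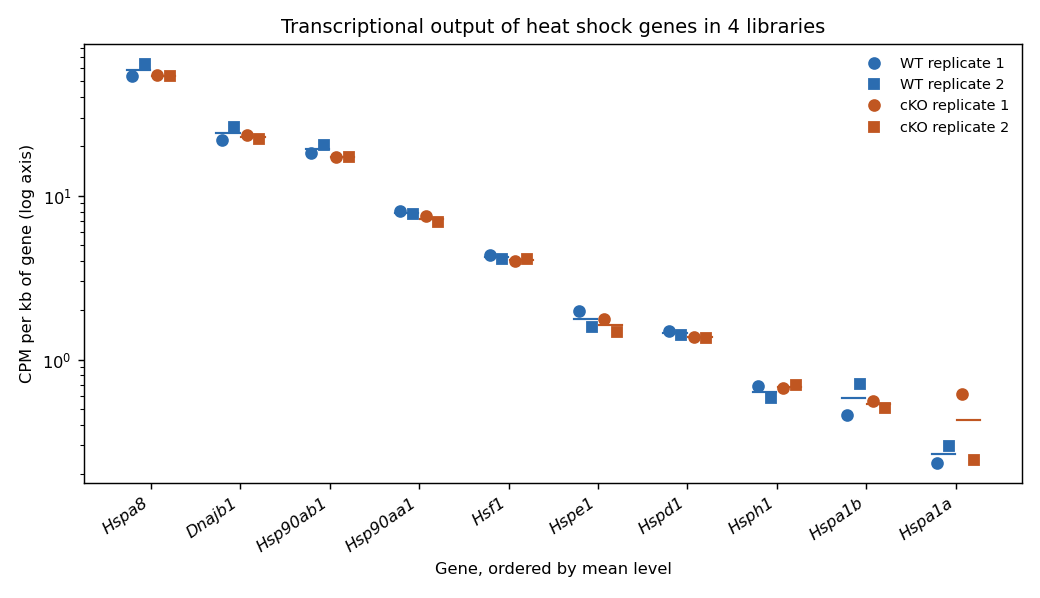
CPM per kb of the 10 members in each library on a log axis, with blue for WT and orange for cKO, circles for replicate 1 and squares for replicate 2, and short lines at the mean of each genotype. Levels run from 56.4 CPM per kb for Hspa8 to 0.347 for Hspa1a, and the libraries of a gene lie close together except for Hspa1a and Hspa1b.

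To ask whether loss of Tox4 changed the output of heat shock genes relative to other genes, cKO was compared with WT. The DESeq2 Wald test was fitted over the whole table. A call needed a mean CPM from 1 upward, an adjusted p below 0.05 and a change of 1.2-fold or more. None of the 9 members with a mean CPM of at least 1 was called, against 3.71% of the 11625 genes. Hspa1a lay under the CPM limit. DESeq2 gave Hspa1a and Hspa1b no adjusted p with independent filtering on, so neither could be called by it. At that background share 9 genes would hold less than 1 call, so the count does not set the group apart. The count was also 0 of 9 with the edgeR quasi-likelihood test and with limma voom, which called 0.499% and 0.525% of genes. An unadjusted p-value under 0.05 was reached by 0 members with DESeq2, edgeR or limma voom, against 13.5%, 15.6% and 15.8% of genes. The median log2 fold change of the 9 members with a mean CPM of at least 1 was -0.12, and that of all 11625 genes was 0.00. The members' median was -0.0705 without WT replicate 2 and -0.09 with Hspa1a and Hspa1b summed.

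Among the constitutive chaperones, Hspa8 (chromosome 9, 40801276 to 40805202, plus strand, 9 exons) had 212 and 250.2 CPM in the WT libraries (replicates 1 and 2) and 213 and 211 CPM in the cKO libraries. Only WT replicate 2 stood above the others, and the genotypes overlapped. The log2 fold change was -0.12 (SE 0.0933, DESeq2 adjusted p = 0.615), and it was -0.25 when WT replicate 1 was left out and 0.01 when WT replicate 2 was. An 87 bp stretch of Hspa8 overlaps the small nucleolar RNA gene Snord14c on the same strand, which was counted at 52.5 to 76.5 fragments.

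Hsp90ab1, the constitutive HSP90 gene (chromosome 17, 45567778 to 45573261, minus strand, 11 exons), was at 99.96 and 112 CPM in WT and at 95.1 and 94.8 CPM in cKO. Both cKO libraries lay below both WT libraries. The log2 fold change of -0.16 (SE 0.0955) did not pass the test (DESeq2 adjusted p = 0.489), and leaving out WT replicate 2 gave -0.07, leaving out WT replicate 1 -0.24. Hsp90aa1 (chromosome 12, 110691036 to 110696395, minus strand, 11 exons) was at 43.4 and 41.2 CPM in WT and at 40.3 and 36.8 CPM in cKO, again without overlap, and the log2 difference was -0.14 (SE 0.118; adjusted p = 0.701 by DESeq2). Without cKO replicate 2 the value of Hsp90aa1 was -0.08, and without cKO replicate 1 it was -0.19.

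Dnajb1, which delivers clients to HSP70 and stimulates its ATPase (chromosome 8, 83608175 to 83612653, plus strand, 3 exons), was at 98.002 and 118 CPM in WT and at 105 and 99.1 CPM in cKO. The cKO libraries lay between the WT libraries, so the difference was smaller than the spread within WT (log2 fold change -0.09, SE 0.107, DESeq2 adjusted p = 0.807). Leaving out WT replicate 1 gave -0.23 for Dnajb1, and its direction turned to 0.06 when WT replicate 2 was left out. Hsph1, the HSP110 gene (chromosome 5, 149616845 to 149636336, minus strand), was at 13.5 and 11.4 CPM in WT and at 13.1 and 13.6 CPM in cKO. The genotypes overlapped, and the value in WT replicate 2 was the lowest (log2 fold change 0.10, SE 0.188, DESeq2 adjusted p = 0.892). For Hsph1 the log2 fold change was -0.01 without WT replicate 2 but 0.22 when WT replicate 1 was left out.

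The mitochondrial pair is transcribed outward from a shared region on chromosome 1, where the annotated 5′ ends of Hspd1 (55077833 to 55088243, minus strand, 12 exons) and Hspe1 (55088148 to 55091317, plus strand, 4 exons) overlap by 96 bp on opposite strands. Hspd1 was at 15.5 and 14.7 CPM in WT and at 14.3 and 14.2 CPM in cKO, without overlap between genotypes (log2 fold change -0.08, SE 0.171, DESeq2 adjusted p = 0.900; -0.05 without WT replicate 1). Hspe1 was at 6.26 and 4.99 CPM in WT and at 5.62 and 4.70 CPM in cKO, with overlap (log2 fold change -0.13, SE 0.282, DESeq2 adjusted p = 0.911). The value of Hspe1 was 0.04 when WT replicate 1 was left out and -0.28 when WT replicate 2 was. For Hspe1 replicate 2 was the lower library in both genotypes, whereas for Hspd1 the libraries were within 1.09-fold of each other.

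Hsf1, the regulator (chromosome 15, 76477362 to 76501155, plus strand), had the smallest spread over libraries among the 10 members. It was at 104 and 98.3 CPM in WT and at 95.6 and 97.2 CPM in cKO, a ratio of 1.09 between the highest and the lowest library. Both cKO libraries lay below both WT libraries by a small margin (log2 fold change -0.07, SE 0.0897, DESeq2 adjusted p = 0.822; -0.04 without WT replicate 1).

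Hspa1a and Hspa1b rested on few fragments. Hspa1a was covered by 28 and 40.5 fragments in WT and by 66 and 27 in cKO, which is 0.657, 0.832, 1.72 and 0.679 CPM. Only cKO replicate 1 stood out, and the genotypes overlapped. The log2 fold change of 0.69 (SE 0.68; with independent filtering off, adjusted p = 0.984 by DESeq2, and none with it on) ran from -0.12 without cKO replicate 1 to 1.21 without cKO replicate 2. Hspa1b had 55 and 97.5 fragments in WT and 60 and 57 in cKO, which is 1.29, 2.002, 1.56 and 1.43 CPM. Here WT replicate 2 was the highest library (log2 fold change -0.15, SE 0.506, DESeq2 adjusted p = 0.984 likewise), and its value was -0.44 when WT replicate 1 was left out and 0.22 when WT replicate 2 was.

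Since the pair shares most of its sequence, its genes were also counted as 1 feature. The sum was 83 and 138 fragments in WT and 126 and 84 fragments in cKO, with the genotypes overlapping (log2 fold change 0.17, SE 0.422, DESeq2 adjusted p = 0.925). Hspa1a made up 33.7% of the sum in WT replicate 1 (95% Wilson interval 24.5 to 44.4), 28.99% in WT replicate 2 (22.1 to 37.04), 52.4% in cKO replicate 1 (43.7 to 60.9) and 32.1% in cKO replicate 2 (23.1 to 42.7). The interval of cKO replicate 1 overlapped that of WT replicate 1 but not those of WT replicate 2 and cKO replicate 2. These intervals cover counting error only, and fragments without molecular identifiers are not independent molecules.

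The intervals of the differences show how large a change lay within the error. The 95% Wald interval of the fold change reached from 0.808 to 1.04 for Hspa8, from 0.787 to 1.02 for Hsp90ab1, from 0.812 to 1.09 for Dnajb1 and from 0.843 to 1.08 for Hsf1. For 6 members, namely these 4, Hsp90aa1 and Hspd1, the upper bound lay under a 1.2-fold increase. A decrease of 1.2-fold lay outside the interval for 1 member, Hsf1. For Hspa1a the interval reached from 0.640 to 4.06 and for Hspa1b from 0.454 to 1.80, so that a change of 1.5-fold in either direction lay within both intervals. The missed threshold therefore does not show that the genotypes were alike.

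**Figure D3:**
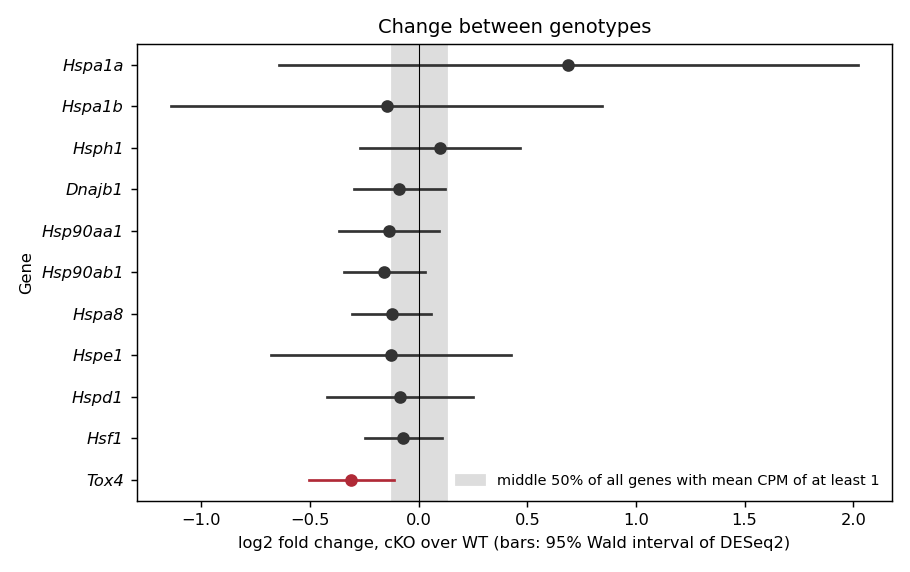
Log2 fold change of cKO over WT for the 10 members and Tox4, with bars for the 95% Wald interval of DESeq2 and grey for the middle 50% of the 11625 genes. The intervals of all 10 members cross 0, those of Hspa1a and Hspa1b are the widest, and that of Tox4 lies below 0.

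Most values lay a little below 0. A log2 fold change below 0 was found for 8 of the 9 members with a mean CPM of at least 1, against 49.8% of genes, and the values of these 9 members ran from -0.16 to 0.10, a range that held 49.996% of all genes. Both cKO libraries lay below both WT libraries for 4 of 10 members, Hsp90aa1, Hsp90ab1, Hspd1 and Hsf1, and for 24.0% of genes. They lay above both for 0 members and for 24.9% of genes. When each library was left out in turn, with the remaining single library assumed to vary like the other group, 6 members changed direction and these 4 kept it, a sign that the separation of their libraries fixes.

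Handling of cells can induce heat shock genes, so single libraries were compared within each genotype. A difference of at least 1.5-fold between the WT libraries was found for 1 member, Hspa1b, at 1.55-fold, and for 6.21% of genes. Between the cKO libraries it was found for 1 of 10 members, Hspa1a, which was at 0.395 of its level in cKO replicate 1, and for 5.65% of the genes averaging 1 CPM or more, to which Hspa1a does not belong. Among the 1416 genes from 1 to 3 CPM, 23.1% differed by 1.5-fold within WT and 29.2% within cKO, so differences of that size were frequent at the level of Hspa1b. No member above 3 CPM differed by 1.5-fold within a genotype. Such differences were also rare among all genes at these levels. The share was 6.26% (WT) and 4.41% (cKO) of genes from 3 to 30 CPM, and 1.95% and 0.601% from 30 to 300 CPM. The absence thus does not set these members apart.

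**Figure D4:**
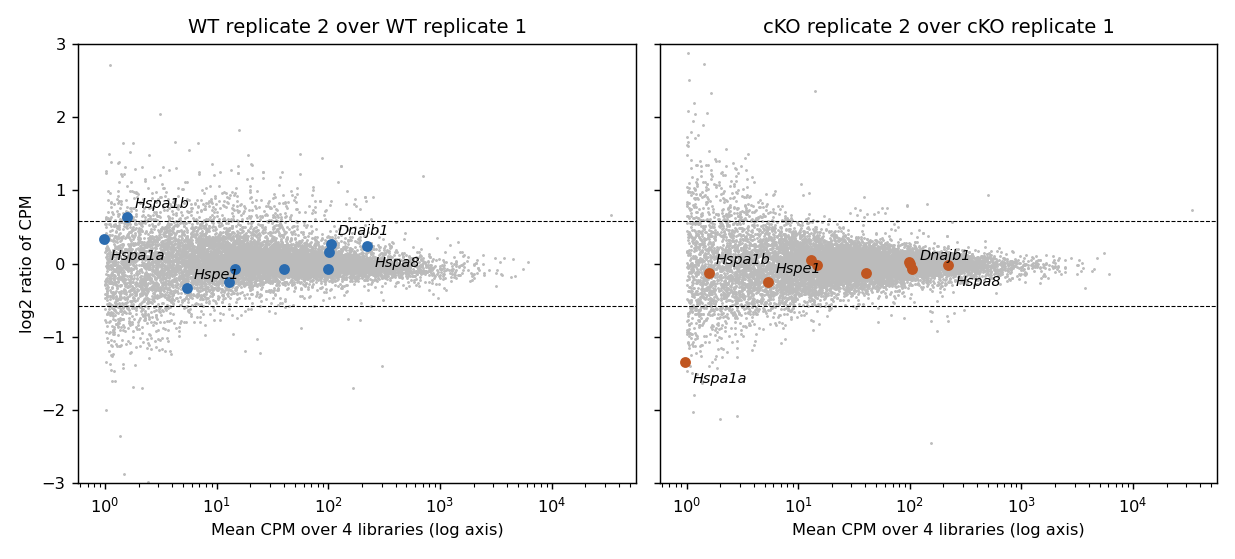
Log2 ratio of CPM between the libraries of a genotype against mean CPM on a log axis, with grey points for genes of at least 1 CPM, coloured points for the 10 members and dashed lines at 1.5-fold. Hspa1b in WT and Hspa1a in cKO lie beyond the lines, and 5 genes in WT and 8 in cKO lie outside the vertical axis or are at 0 in a library.

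Summed over the 10 members, the level was 594 and 654 CPM in the WT libraries and 585 and 574 CPM in the cKO libraries, so that WT averaged 624 ± 42.1 CPM and cKO 579.6 ± 8.35 CPM (SD, n = 2 each). WT replicate 2 was the highest, by 1.10-fold over WT replicate 1, and Hspa8 was the largest contributor to each sum. Without Hspa8 the sums were 382, 403, 372 and 362 CPM. WT replicate 1 was the highest library for 4 members and the lowest for 3, and WT replicate 2 was the highest for 4 and the lowest for 1. The cKO replicate 2 library was the lowest for 5 members.

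In WT replicate 2 the members lay on both sides of WT replicate 1. Relative to WT replicate 1, Hspa1b was at 1.55-fold, Hspa1a at 1.27-fold, Dnajb1 at 1.21-fold, Hspa8 at 1.18-fold and Hsp90ab1 at 1.12-fold. In the same library Hsph1 was at 0.842-fold, Hspe1 at 0.797-fold, and Hsp90aa1, Hspd1 and Hsf1 at about 0.95-fold of WT replicate 1. The median log2 ratio of WT replicate 2 to WT replicate 1 over 9 members was -0.07, beside 0.00 over all genes. Between the cKO libraries the median over 9 members was -0.02, beside -0.01 over all genes.

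**Figure D5:**
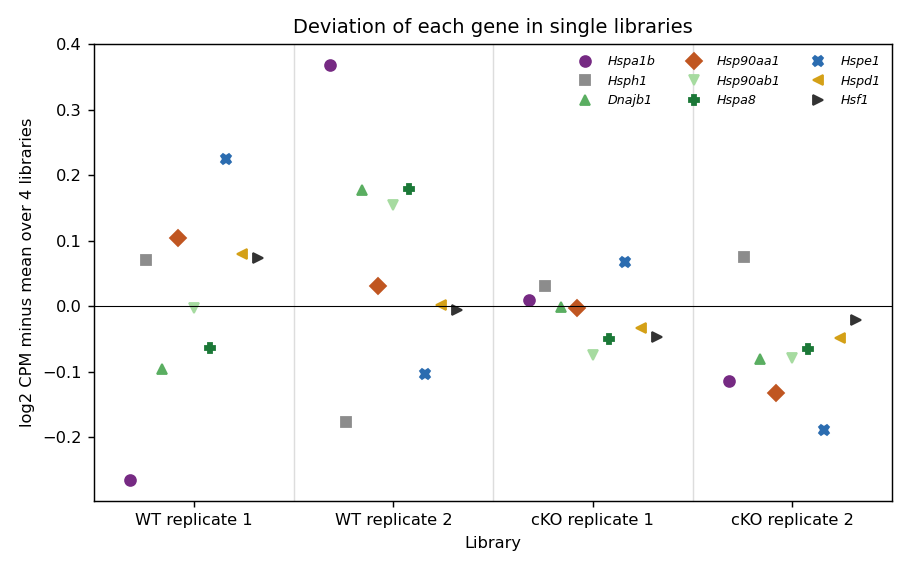
Log2 CPM of the 9 members with a mean CPM of at least 1 in each library, minus the mean of that gene over the 4 libraries, with 1 symbol per gene. In WT replicate 2, Hspa1b, Dnajb1, Hspa8 and Hsp90ab1 lie above 0.15, while Hsph1 and Hspe1 lie below -0.10.

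Immediate early genes respond to handling within minutes, and 25 of them were set beside the members. Over the 23 with a mean CPM of at least 1, the median log2 ratio of WT replicate 2 to WT replicate 1 was 0.24, and that of cKO replicate 2 to cKO replicate 1 was -0.09. Between genotypes 8 of the 23 were called with DESeq2, 3 increased and 5 decreased, beside 3.71% of all genes (2.14% increased and 1.57% decreased). An unadjusted DESeq2 p under 0.05 was found for 12 of them, beside 13.5% of all genes. The list was chosen with earlier results of these data known, so these contrasts with all genes are a description only. Jun fell from 47.2 ± 8.71 to 31.9 ± 4.67 CPM (SD, n = 2), Egr1 from 18.02 ± 1.55 to 11.1 ± 0.620 CPM (SD, n = 2), and Ier5, Btg2 and Zfp36 also decreased, with DESeq2 log2 fold changes of -0.53, -0.31 and -0.33. Fosl2, Nr4a3 and Myc increased by 0.49, 0.37 and 0.81 on the log2 scale. Dusp5, the uncalled gene of the list with the highest level, was at 204 ± 4.32 CPM in WT and 202 ± 22.04 CPM in cKO (SD, n = 2). None of these 8 calls was made with edgeR, where their adjusted p-values ranged from 0.0932 to 0.211. Without 1 library the count of increased calls was between 0 and 3 (0 without WT replicate 1 or cKO replicate 2), and that of decreased calls between 0 and 3 (0 without WT replicate 2 or cKO replicate 2). Leaving out WT replicate 2 gave -0.36 for Jun, -0.18 for Btg2 and 1.11 for Myc, leaving out WT replicate 1 gave 0.57 for Myc, and leaving out cKO replicate 2 gave 0.23 for Nr4a3. The part of handling in any of these differences was not tested.

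The wider chaperone network was described by lists of 137 further genes, of which 122 had a mean CPM of at least 1. Increased output was called for 1 of these, beside 2.14% of all genes, and decreased output for 3, beside 1.57%. The increased gene was Fkbp5, an HSP90 co-chaperone that binds steroid receptor complexes, which averaged 269 ± 17.7 CPM for WT and rose to 369 ± 1.86 CPM for cKO (log2 fold change 0.45, SE 0.0791, DESeq2 adjusted p = 2.98e-06; edgeR adjusted p = 0.0557). The decreased genes were Unc45a, an HSP90 co-chaperone for myosin (log2 fold change -0.40, DESeq2 adjusted p = 0.0166), Calr, the ER chaperone calreticulin (-0.33, 0.0239), and Sqstm1, the autophagy receptor p62 (-0.40, 0.00129). The increased call was made without any 1 library, whereas the decreased calls numbered 0 without WT replicate 1, cKO replicate 1 or cKO replicate 2. For Unc45a the log2 fold change was -0.26 when WT replicate 1 was left out. With edgeR none of the 4 was called, and limma voom called 1 increased and 0 decreased genes of the lists.

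Among the lists, 33 J-domain genes had a median log2 fold change of -0.03 with 0 calls by DESeq2 or edgeR, and 1 gene had an unadjusted DESeq2 p under 0.05, Dnajc15, which also had the highest level (308 ± 16.9 CPM in WT, 359 ± 39.2 in cKO). An unadjusted p under 0.05 was found for 13.5% of all genes. The 25 co-chaperones had a median of -0.00 and 4 genes under that limit (Fkbp5, Unc45a, Ppp5c and Tomm34, the last pair named after their values were seen), and Bag6 was at 137 ± 4.69 and 128 ± 5.20 CPM. The 18 ER chaperones had a median of -0.10, with 13 of 18 below 0 and 2 under the unadjusted limit, and the 16 mitochondrial chaperones and proteases a median of -0.08, with 10 below 0. The 14 subunits of TRiC/CCT and prefoldin, which fold actin and tubulin, had a median of -0.05, and neither they nor the mitochondrial genes held a call by DESeq2 or edgeR or an unadjusted DESeq2 p under 0.05 (0 of 14 and 0 of 16). The highest uncalled genes of these 3 lists were Dnajc3, Clpb and Cct7, with DESeq2 log2 fold changes of -0.02, -0.07 and -0.03. In the same order they were 0.01, -0.12 and -0.08 without WT replicate 1, and -0.06, -0.03 and 0.01 without WT replicate 2.

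Of 8 other HSP70 and HSP110 genes averaging 1 CPM or more, 0 were called with DESeq2 or edgeR and 0 had an unadjusted DESeq2 p under 0.05. Among them Hspa4, the highest, was at 116 ± 6.07 CPM in WT and 115 ± 1.48 CPM in cKO. Of 7 genes of the HSF family or its regulators 0 were called with DESeq2 or edgeR, 1 had an unadjusted DESeq2 p under 0.05 (Hsf2bp, named after its value was seen, with a mean of 1.78 CPM and a log2 fold change of 1.502), and Vcp, the highest, had a log2 fold change of -0.09. Only 2 of the 10 genes listed as small heat shock genes reached a mean of 1 CPM. Of these 2, Hspb11 had a log2 fold change of 0.47 that did not pass (DESeq2 adjusted p = 0.197), and only Hspb11 was under the unadjusted limit. Whether Hspb11 acts as a small heat shock protein was not examined. The 18 other heat-inducible genes averaging 1 CPM or more had a median of -0.07 and 2 genes under the unadjusted limit, and the polyubiquitin gene Ubb was at 264 ± 36.8 and 222 ± 41.7 CPM.

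The 5 genes whose pattern over the 4 libraries was nearest to that of the summed Hspa1a and Hspa1b, among 8146 genes averaging 10 CPM or more, were Phf23, Plekhg5, Rpl14, Lockd and Rbmxl1. Likeness was the Euclidean distance of centred log2(CPM + 0.5), which ran from 0.0562 to 0.125, and with 4 libraries it is a description only. None was in the chaperone lists.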

How the data were processed

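TTchem-seq of DP thymocytes was represented by 4 libraries, 2 per genotype. The authors deposited a table of expected counts, that is fragments per gene that need not be whole (8.61% of values are fractional). Their processing notes list fastp 0.13.1, STAR 2.7.9a and featureCounts 1.6.1, whereas the study's methods describe gene counts from STAR. A yeast spike-in was added and was not used for scaling, so levels and fold changes are relative to the other genes of a library. A change shared by all genes would not appear in them. Counting covered introns, since the listed length equals the union of transcript intervals for all 24984 genes. Per the methods duplicates were marked with SAMtools and Picard; whether they were left out of the counts, the strand setting and the treatment of multiply aligned fragments were not given in the sources used here. The labels describe polyA selection, the methods rRNA depletion.

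Counts were rounded and tested with DESeq2 1.42.0 (Wald test, R 4.3.3), and called at a mean CPM from 1 upward, an adjusted p below 0.05 and a change of 1.2-fold or more. CPM was computed from library totals. Alternatives were edgeR 4.0.16, limma 3.58.1 (voom), other size factors, filters, fold limits, truncated counts, a replicate block and leaving out each library. The fits were tested on simulated data. Intervals are 95% Wald intervals. Columns of per-sample values that were not used numbered 0. The named genes were the 10 members, Tox4, every called list gene, the uncalled gene of highest mean CPM of each list and the 5 genes nearest in pattern to the summed Hspa1a and Hspa1b. The members and lists were chosen with earlier results of these data known.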

Additional observations from a re-analysis of the deposited data

How the results depend on the processing

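No heat shock member was called with DESeq2, edgeR or limma voom under any of the alternatives run, and the 78 member values with an adjusted p under other settings and the 33 without 1 library stayed above 0.05. DESeq2 gave no adjusted p for 9 and 7 further values, all of Hspa1a or Hspa1b. Directions held except without 1 library, where Hspa1a, Hspa1b, Hsph1, Dnajb1, Hspa8 and Hspe1 turned. The median log2 fold change of the members, -0.12, ranged from -0.12 to -0.07 without 1 library (-0.0705 without WT replicate 2) and was -0.11 with the replicate block. Libraries with the same number correlated at -0.03 in their deviations from the genotype means (11625 genes), and nothing in the labels ties them, so they were not treated as pairs. Rn45s did go with the number, at 2.71% (WT) and 2.44% (cKO) of fragments in replicate 1 and 4.305% and 4.05% in replicate 2.

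Of the chaperone lists, 1 increased call became 0 with edgeR and at 1.5-fold, and stayed at 1 without any 1 library. The 3 decreased calls became 0 with edgeR, limma voom and at 1.5-fold, 1 with the replicate block, and 0 to 2 without 1 library (0 without WT replicate 1, cKO replicate 1 or cKO replicate 2). Of the handling list, 3 increased calls became 0 with edgeR and limma voom, 1 with the replicate block and at 1.5-fold, and 0 to 3 without 1 library (0 without WT replicate 1 or cKO replicate 2). The 5 decreased calls became 0 with edgeR, limma voom and the replicate block, 1 at 1.5-fold, and 0 to 3 without 1 library (0 without WT replicate 2 or cKO replicate 2). The cause was not tested. At a 2-fold limit 0 members differed between the WT libraries and 1, Hspa1a, between the cKO libraries. Summed CPM without Hspa8 was 382, 403, 372 and 362. Hspa1a and Hspa1b rested on the fewest fragments (27 to 97.5 per library) and had the widest intervals, and the parts of depth, library spread and shared sequence in this were not tested.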
